A study of Mus musculus with 4 samples.

Results

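The insulin-like growth factor (IGF) system was examined in mouse embryonic stem (ES) cell lines of 3 BAF250 genotypes. BAF250 is the subunit with an ARID domain that sets the BAF complex apart from its relative PBAF among the SWI/SNF chromatin remodellers. The members were 10 genes taken by name: the ligand gene Igf2, the receptor genes Igf1r and Igf2r, the binding protein genes Igfbp2, Igfbp3, Igfbp4 and Igfbp5, and the mRNA-binding protein genes Igf2bp1, Igf2bp2 and Igf2bp3. All probe sets that the platform annotation gives to one of these symbols alone were used, which made 30 of the 45101 probe sets on the array, for 9 genes of 18194. Igf2bp2 expression was not analysed here. The choice of genes was made with the low Igfbp2 signal in both homozygous arrays in view, so the Igfbp2 difference between homozygous and other cells is given as a description with no test. The 4 arrays came from 2 lines labelled as homozygous knock-outs of BAF250, ko1 and ko2 (replicates 1 and 2), from 1 heterozygous line and from 1 wild type line, each 1 array of total RNA. All 4 cultures grew without feeders on gelatin in medium with serum and a factor the labels call leukocyte inhibitory factor, and nothing in the labels says whether ko1 and ko2 are independent clones. The labels do not state which part of the gene was changed. Nor do they say whether BAF250 means BAF250a, encoded by Arid1a, or BAF250b, encoded by Arid1b.

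IGF2 is a secreted growth factor that drives growth of the embryo and placenta through the tyrosine kinase receptor IGF1R, while IGF2R, the cation-independent mannose 6-phosphate receptor, takes IGF2 up and delivers it to lysosomes for degradation. Igf2 is imprinted and expressed from the paternal allele, and mouse Igf2r from the maternal allele in most tissues. The secreted IGF binding proteins hold IGFs outside the cell and either block or prolong their action, depending on the binding protein, its cleavage and its place. The IGF2 mRNA-binding proteins are cytoplasmic RNA-binding proteins of the embryo with KH domains, named for their binding to Igf2 mRNA, and they control where target mRNAs go and how long these last.

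The arrays set firm limits on what could be seen. The median log2(signal + 0.675) over the 27022 tested probe sets was 2.53 in ko1, 2.46 in ko2, 2.47 in the heterozygous array and 3.04 in the wild type array, so each array was centred on that median, and all log2 differences below are on this centred scale. The background of an array was taken as its brightest probe set for bacterial control transcripts that were not spiked in, 5.55 in ko1, 3.82 in ko2, 6.92 in the heterozygous array and 7.57 in the wild type array. Of the 30 probe sets, 9 were above it on all 4 arrays, 13 on some and 8 on none. The 3'/5' ratio of the actin control probe sets, a sign of RNA quality, was 5.01 in ko1, 2.61 in ko2, 2.86 in the heterozygous array and 1.30 in the wild type array. Arid1a, which encodes BAF250a, read 7.03 in ko1 and 3.57 in ko2, against 50.4 in heterozygous and 109 in wild type on its brighter probe set (limma adjusted p = 0.00132 for homozygous against wild type). The ko2 value lay below background and the ko1 value above it. Arid1a was taken as the gene to check because it was low in both homozygous arrays. Its p-value is therefore no independent test of the knock-out. The dimmer Arid1a probe set read 17.3 in ko1, above background, and 1.06 in ko2, below it, against 24.1 in heterozygous and 42.9 in wild type, and did not pass (limma adjusted p = 0.544). Both Arid1a probe sets were thus above background in ko1 and below it in ko2. Whether the probes lie in the altered part was not tested. The Arid1b probe set read 0.774 in ko1 and 0.233 in ko2, against 3.03 in heterozygous and 6.14 in wild type. All of these Arid1b signals were below background, and it was too dim to be tested. All 10 ES cell markers on a list made with earlier results of these data known were above background on all 4 arrays.

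Promoters are shown for Igfbp2, whose low signal in the homozygous lines led to this choice of genes, and for Igf2. Among the other members' probe sets above background in ko1, ko2 and wild type, that of Igf2 had the largest homozygous minus wild type difference. It was brighter in the homozygous lines. The brightest Igf1r probe set had a larger fitted difference (3.16) but was below background in wild type. For Igfbp2 and Igf2 the promoter window with the most GC boxes is printed here. That of Igfbp5 is added because Igfbp5 is the next protein-coding gene after Igfbp2 on chromosome 1. Each is the 300-base window of RefSeq on build GRCm38.p6, with 250 bases before the transcription start and 50 after it, 5′ to 3′ on the gene's own strand. Capitals mark the GC box GGGCGG on either strand, the motif of SP1-type factors. Igfbp2 has 2 listed starts and Igf2 has 4. The windows shown are those of the most upstream Igfbp2 start, at chr1:72824230-72824529 on the plus strand, of the single Igfbp5 start, at chr1:72874816-72875115 on the minus strand, and of the most downstream Igf2 start, at chr7:142657447-142657746 on the minus strand.
Igfbp2: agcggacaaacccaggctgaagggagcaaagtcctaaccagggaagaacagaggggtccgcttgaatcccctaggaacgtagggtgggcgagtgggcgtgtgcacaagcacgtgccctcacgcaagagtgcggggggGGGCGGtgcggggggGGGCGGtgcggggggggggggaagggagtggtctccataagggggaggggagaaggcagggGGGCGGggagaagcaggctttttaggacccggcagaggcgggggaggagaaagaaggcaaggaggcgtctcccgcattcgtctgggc
Igfbp5: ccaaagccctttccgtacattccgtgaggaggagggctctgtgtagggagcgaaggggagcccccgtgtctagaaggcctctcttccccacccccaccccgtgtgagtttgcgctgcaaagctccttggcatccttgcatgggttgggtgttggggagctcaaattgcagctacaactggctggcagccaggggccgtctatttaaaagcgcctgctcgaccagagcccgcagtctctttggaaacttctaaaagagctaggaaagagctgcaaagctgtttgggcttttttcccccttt
Igf2: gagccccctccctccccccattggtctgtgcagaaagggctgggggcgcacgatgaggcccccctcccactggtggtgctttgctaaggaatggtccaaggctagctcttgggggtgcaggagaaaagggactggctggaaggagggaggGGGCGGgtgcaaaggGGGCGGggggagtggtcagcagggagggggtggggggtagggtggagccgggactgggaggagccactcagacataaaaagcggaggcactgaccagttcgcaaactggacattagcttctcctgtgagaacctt

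The Igfbp2 window held 3 GC boxes and 18 CpG dinucleotides at 67% G + C, the Igf2 window 2 GC boxes and 7 CpG at 63.3%, and the Igfbp5 window no GC box and 10 CpG at 56.3%. The other Igfbp2 start had no GC box in its window, and of the other 3 Igf2 starts 1 had a single GC box and 2 had none. Over all 32851 RefSeq windows of this length, 35.7% held at least 1 GC box, and 6 of the 13 windows of the 9 members with an entry did. These 9 include Igf2bp2 and leave out Igf2bp1, which had no entry. The E-box CACGTG, which is its own reverse complement, was in 7.15% of all windows, and the Igfbp2 window shown held 1 copy, with 2 each in those of Igf2r and Igf2bp3. The TATA motif TATAAA, sought on both strands, was in 13.6% of all windows and, among the members, in that of Igfbp4 alone.

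**Figure D1:**
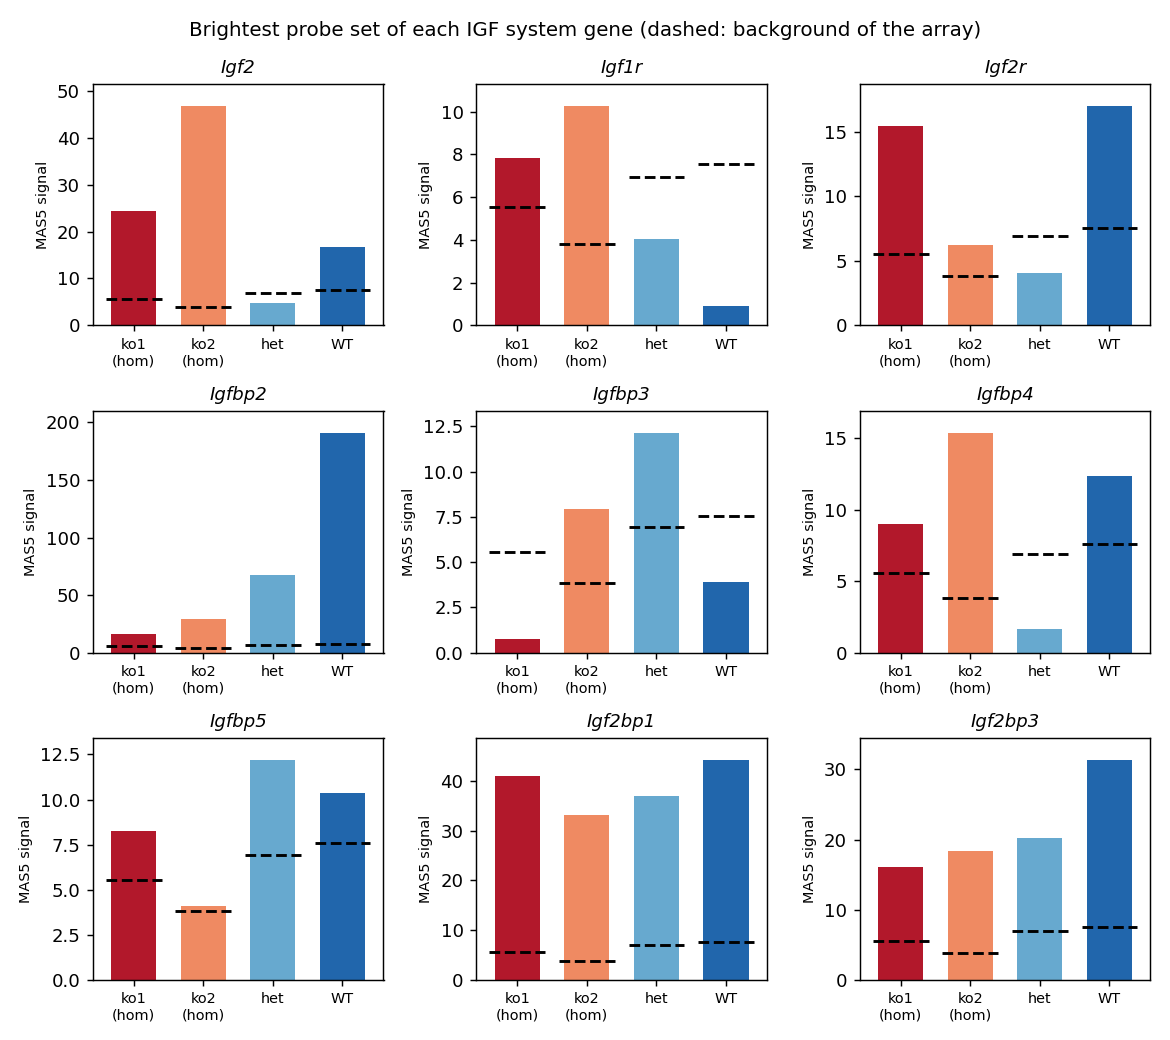
Deposited MAS5 signal (vertical axis, linear, from 0) of the brightest probe set of each of 9 IGF system genes on the arrays of ko1, ko2, heterozygous (het) and wild type (WT) cells; bars are single arrays, and dashed lines are the background of each array. Igfbp2 reads 15.7 in ko1 and 29.2 in ko2, against 67.4 in het and 191 in WT, while Igf2 reads 24.4 and 46.8, against 4.83 and 16.6.

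The ligand gene Igf2 was brighter in both homozygous lines than in either other array on both of its probe sets. The brighter probe set read 24.4 in ko1 and 46.8 in ko2, against 4.83 in heterozygous and 16.6 in wild type. The heterozygous signal was below background, and the groups did not overlap. Homozygous minus wild type was 1.54 ± 0.60 (SE) in log2, 1.04 in ko1 and 2.04 in ko2, and did not pass the test (limma adjusted p = 0.614, 95% interval 0.29 to 2.79). Against the background that stands in for the heterozygous signal, the homozygous mean was at least 4.47-fold higher, with error not counted. The fitted log2 difference from heterozygous was 2.63 ± 0.60 and did not pass (limma adjusted p = 0.064, 95% interval 1.37 to 3.88). Heterozygous minus wild type was -1.08 ± 0.69 (limma adjusted p = 1). Set against wild type and heterozygous together, the homozygous lines were 2.08 ± 0.50 higher and passed (limma adjusted p = 0.0441), whereas with 3 genotypes the adjusted p against wild type lay between 0.552 and 0.799 under the alternatives tried. The second Igf2 probe set read 4.03 in ko1 and 8.55 in ko2, against 0.392 in heterozygous and 3.35 in wild type, and only the ko2 signal was above background. It ran the same way as the brighter one, with homozygous minus wild type at 1.26 ± 1.29 (limma adjusted p = 0.882).

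The receptor genes gave no difference that passed the test, and most of their probe sets were near background. For Igf1r, the signalling receptor of both IGFs, 3 of 5 probe sets were below background on all 4 arrays and 1 was not tested because of its low mean. The brightest read 7.84 in ko1 and 10.3 in ko2, above background, against 4.02 in heterozygous and 0.907 in wild type, both below it. On it the homozygous lines were at least 1.71-fold higher than wild type (fitted log2 difference 3.16 ± 1.07, limma adjusted p = 0.439). The next brightest Igf1r probe set ran in the opposite direction, at 2.61 and 1.19 in the homozygous lines, against 5.98 in heterozygous and 7.51 in wild type, all below background. A further Igf1r probe set ran the same way as the brightest, at 5.34 in ko1 and 4.93 in ko2. It read 3.88 in heterozygous and 2.31 in wild type, and only its ko2 signal was above background. The 3 Igf1r probe sets that did not run this way were those below background on all 4 arrays. The disagreement in direction thus rests on signals that were not above background, and no direction is given for the gene. Igf2r, the clearance receptor, read 15.4 in ko1 and 6.25 in ko2, against 4.06 in heterozygous and 17.0 in wild type. Homozygous minus wild type was -0.20 ± 0.76 (limma adjusted p = 0.97, 95% interval -1.79 to 1.39). Both Igf2r signals were below wild type as deposited, whereas on the centred scale ko1 was above it (0.37) and ko2 below it (-0.77). The second Igf2r probe set read 7.93 and 10.8, against 5.09 in heterozygous and 17.6 in wild type, a homozygous minus wild type difference of -0.33 ± 0.73. Both Igf2r probe sets were below background in the heterozygous array, where 67.5% of all tested probe sets did not exceed it, and above it in the other 3. A further probe set annotated to Igf2r and its antisense transcript Airn together was left out.

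Igfbp2, the binding protein gene whose low level led to this choice of genes, was low in both homozygous lines, intermediate in heterozygous and highest in wild type. Its single probe set read 15.7 in ko1 and 29.2 in ko2, against 67.4 in heterozygous and 191 in wild type, above background on every array. Homozygous minus wild type was -2.57 in log2, 5.93-fold lower, with ko1 at -3.04 and ko2 at -2.10. Homozygous minus heterozygous was -1.64, 3.12-fold lower, with ko1 at -2.11 and ko2 at -1.18. The homozygous lines themselves lay 0.94 apart, with ko1 lower. The step that the choice of genes did not name, heterozygous minus wild type, was -0.93 ± 0.58 (limma adjusted p = 1, 95% interval -2.14 to 0.28), so these neighbours in the order did not differ beyond the error of the fit. Among the 27022 tested probe sets the Igfbp2 difference ranked 291 from the lowest for homozygous minus wild type and 1996 for homozygous minus heterozygous. The 5 genes with the most similar profile over the 4 arrays, by Euclidean distance of centred log2 values after each gene's own mean over the arrays was subtracted, were Cebpa, Xrcc4, Srrm1, Nbn and Hikeshi, at distances of 0.14 to 0.22. Cebpa, Xrcc4, Srrm1 and Nbn were below background in ko1, ko2 and heterozygous, and Hikeshi in ko1, so these distances rest largely on signals that were not above background. Of these, Hikeshi read 1.63 in ko1 and 4.23 in ko2, against 9.42 in heterozygous and 24.9 in wild type.

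None of the 3 other binding protein genes passed the test in any comparison. Igfbp5, its neighbour on chromosome 1, read 8.26 in ko1 and 4.09 in ko2, against 12.2 in heterozygous and 10.4 in wild type, above background throughout. Homozygous minus wild type was -0.22 ± 0.79 for Igfbp5 (limma adjusted p = 0.967, 95% interval -1.86 to 1.43), with ko1 above wild type (0.20) and ko2 below it (-0.63) on the centred scale but both below it as deposited. The other Igfbp5 probe set was below background on all 4 arrays. Igfbp3, which encodes the main IGF carrier of the circulation, read 0.748 in ko1 and 7.93 in ko2, against 12.2 in heterozygous and 3.91 in wild type. Only the ko2 and heterozygous signals of Igfbp3 were above background, so no size is given for the difference between the lines. Homozygous minus wild type was 0.16 ± 1.18 (-0.39 with signals as deposited) and did not pass (limma adjusted p = 0.987). Igfbp4, whose product mostly inhibits IGF action, had 6 probe sets with differing patterns. The brightest read 8.97 in ko1 and 15.4 in ko2, against 1.63 in heterozygous, below background, and 12.3 in wild type. On this Igfbp4 probe set homozygous was at least 1.61-fold higher than heterozygous (fitted log2 difference 2.41 ± 0.82, limma adjusted p = 0.483) and 0.48 ± 0.82 above wild type (-0.063 with signals as deposited). A dimmer one ran the same way against heterozygous, at 4.51 in ko1 and 9.48 in ko2, against 0.466 in heterozygous and 3.02 in wild type, only ko2 being above background (fitted log2 difference 2.65 ± 1.26, limma adjusted p = 0.855). The second brightest Igfbp4 probe set read 5.79 in ko1 and 5.69 in ko2, against 5.80 in heterozygous and 9.28 in wild type, with log2 differences of -0.04 and -0.09. A pair of further Igfbp4 probe sets was bright in ko2 alone, at 15.8 and 12.8, with all other arrays between 0.601 and 1.97, and the last was below background throughout.

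**Figure D2:**
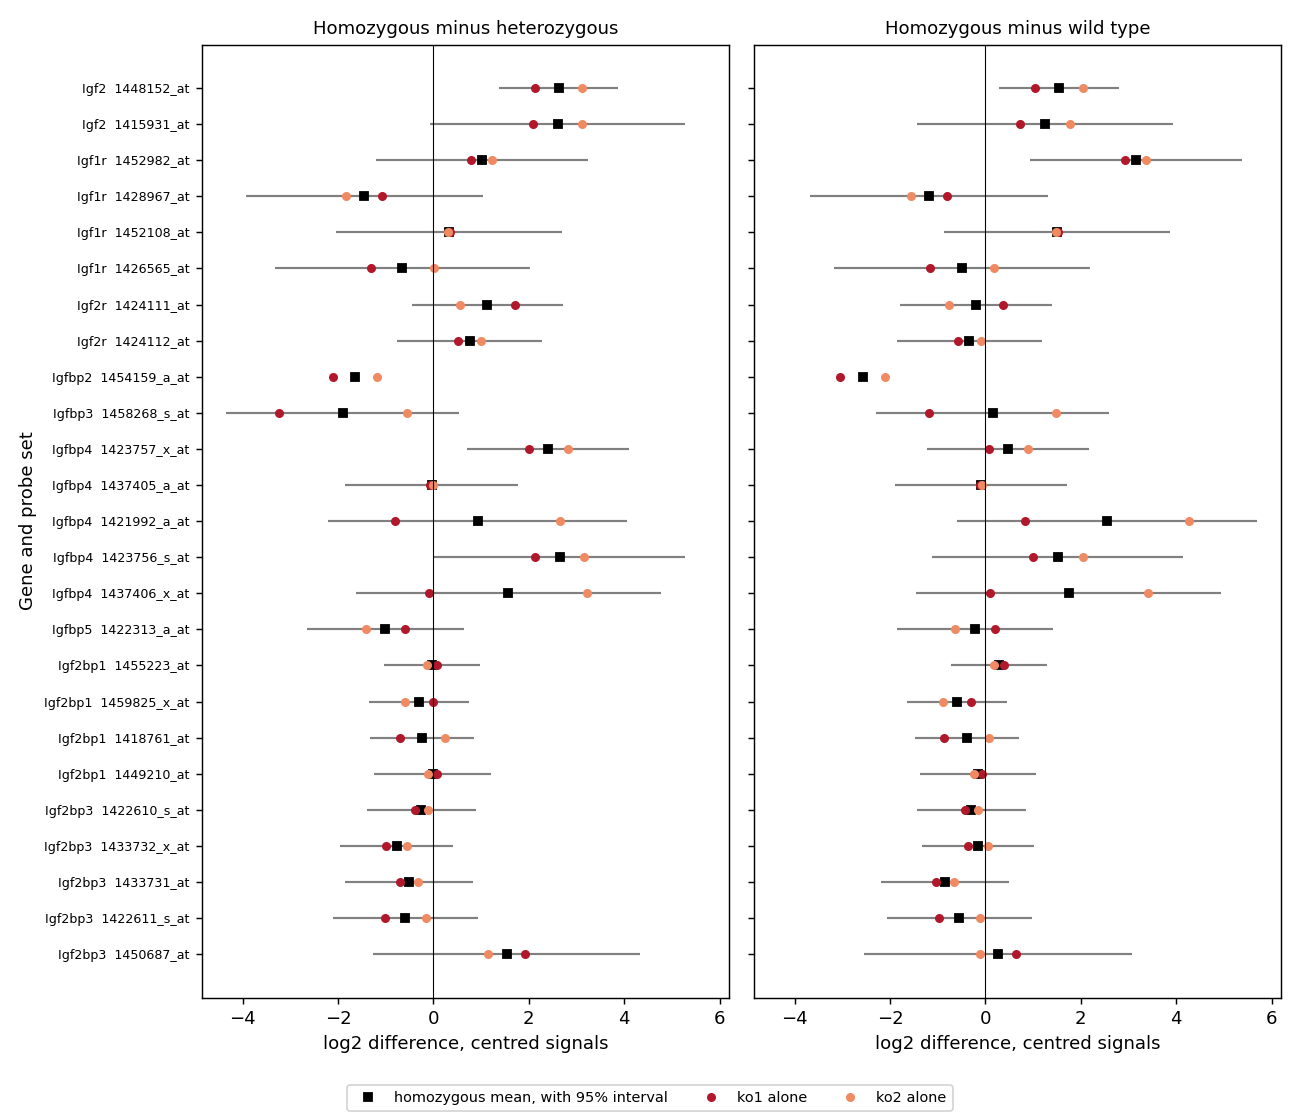
Log2 difference of centred signals (horizontal axis) for the 25 tested probe sets of the IGF system genes, homozygous minus heterozygous on the left and homozygous minus wild type on the right. Squares are the mean of both homozygous lines with its 95% interval from limma (none for Igfbp2, which was chosen on this difference), red points are ko1 alone and orange points ko2 alone. Igfbp2 lies left of 0 and both Igf2 probe sets right of 0 in each panel and each line, while the 95% intervals of all Igf2bp1 probe sets include 0.

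Igf2bp1 and Igf2bp3 gave 7 of the 9 probe sets of the system that were above background on every array, and no difference that passed the test. All 4 Igf2bp1 probe sets were above background on every array, as were 3 of 6 for Igf2bp3. Igf2bp1, whose product also binds beta-actin and Myc mRNA, read 41.1 in ko1 and 33.2 in ko2, against 37.1 in heterozygous and 44.3 in wild type on its brightest probe set. Homozygous minus wild type was 0.29 ± 0.49 in log2 there (limma adjusted p = 0.935, 95% interval -0.72 to 1.30), and -0.60, -0.39 and -0.16 on the 3 other probe sets. The sign of the brightest turned without centring (-0.26 ± 0.52) and with probe sets averaged (-0.20 ± 0.45). Homozygous minus heterozygous lay between -0.30 and -0.01 over the 4 Igf2bp1 probe sets. Igf2bp3 read 16.1 in ko1 and 18.4 in ko2, against 20.2 in heterozygous and 31.4 in wild type on its brightest probe set, a homozygous minus wild type difference of -0.30 ± 0.55 (limma adjusted p = 0.94, 95% interval -1.43 to 0.84). Its 4 brightest probe sets stood at -0.84 to -0.15 for homozygous minus wild type. The 2 dimmest Igf2bp3 probe sets were below background throughout. These intervals are wide, so a missed threshold does not show equal Igf2bp1 or Igf2bp3 levels.

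**Figure D3:**
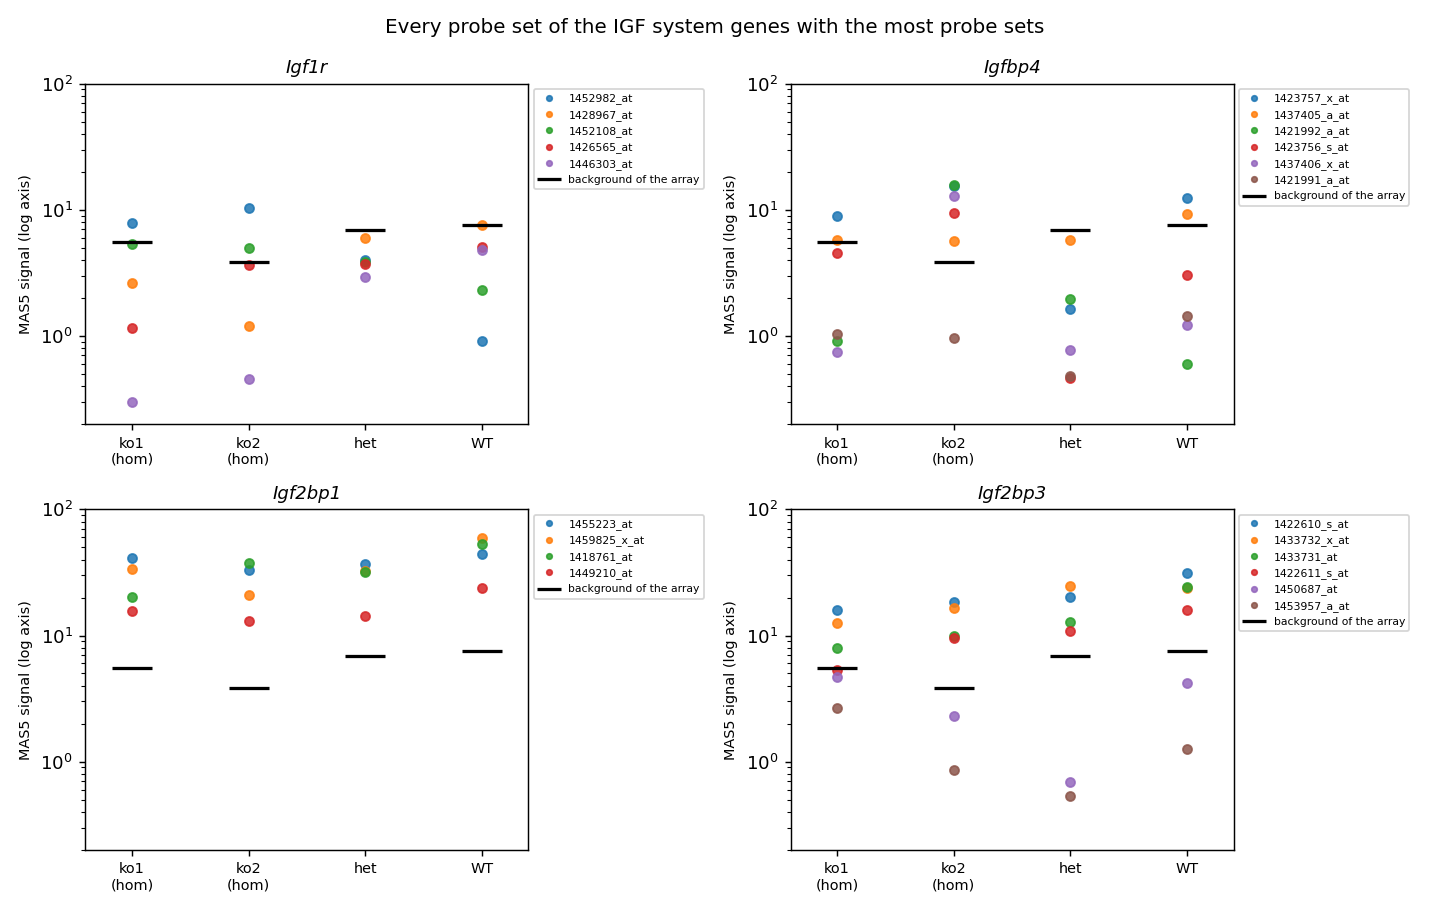
Deposited MAS5 signal (vertical axis, log scale) of every probe set of Igf1r, Igfbp4, Igf2bp1 and Igf2bp3 on each array, ko1, ko2, heterozygous (het) and wild type (WT); coloured points are probe sets and black bars the background of the array. The 4 Igf2bp1 probe sets lie above background on every array, whereas those of Igf1r and Igfbp4 scatter around it and differ in which array is brightest.

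Over the system as a whole, 25 of the 30 probe sets passed the filter on dim signals. Leaving out Igfbp2, 0 of 24 passed the test for homozygous against wild type (limma, adjusted p below 0.05), where 0.463% of all 27022 tested probe sets did, 102 higher (0.377%) and 23 lower (0.0851%). Of the 24, 2 had an unadjusted p below 0.05, the brightest probe sets of Igf1r and Igf2, where 1758 of all 27022 did. The split of all calls moved with scaling, to 57 higher and 54 lower with the signals as deposited and to 65 higher and 5 lower after scaling to the trimmed mean. For homozygous against heterozygous, 0 of 24 passed, with 3 at an unadjusted p below 0.05 (1573 of all 27022), where 0.377% of all tested probe sets passed, 95 higher (0.352%) and 7 lower (0.0259%). For heterozygous against wild type, 0 of 25 passed, with 0 at an unadjusted p below 0.05; 0% of all tested probe sets passed, and 842 had an unadjusted p below 0.05. On the centred scale ko1 and ko2 were both under heterozygous and wild type in 7 of the 25, Igfbp2 among them, where 21.0% of all tested probe sets did so, and above both in 6 of 25, where 17.5% did. These shares were near those of all probe sets. The median log2 difference over the 24 was -0.12 for homozygous minus wild type, against -0.19 over all tested probe sets, and -0.02 for homozygous minus heterozygous, against -0.08.

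The remaining pathway was followed through 81 listed genes, each by its brightest probe set, of which 64 were tested. In all 3 comparisons 0 of the 64 passed in either direction by limma, with 6 at an unadjusted p below 0.05 for homozygous against wild type, 7 for homozygous against heterozygous and 2 for heterozygous against wild type. Over all 27022 probe sets, 1758, 1573 and 842 had such a p in these comparisons, and 0.463%, 0.377% and 0% passed. These 64 genes had a median log2 difference of -0.40 for homozygous minus wild type, against -0.19 over all tested probe sets. It was lowest, at -0.80, over 11 RNA-binding and chromatin partners and targets of the IGF2 mRNA-binding proteins. It was -0.44 over 24 genes of the PI3 kinase, AKT and mTOR cascade, which carries the growth and survival signal of IGF1R. It was -0.43 over 8 IGFBP proteases and inhibitors and -0.20 over 11 docking and adaptor genes. The median was 0.02 over 4 RAS and MAP kinase genes and 0.01 over 6 other IGF and insulin genes. The value over all tested probe sets was not limited to each gene's brightest. On the centred scale ko1 and ko2 were both under the other 2 arrays in 19 of the 64 (21.0% of all tested probe sets) and above them in 11 (17.5%). The following genes are named for their roles or for an unadjusted p below 0.05, after their values were seen. Igf1, the other IGF ligand, read 5.19 in ko1 and 0.454 in ko2, against 2.67 in heterozygous and 13.3 in wild type, above background in wild type alone. Insr, the insulin receptor that also binds IGF2, read 1.72 in ko1 and 11.99 in ko2, against 9.13 in heterozygous and 2.56 in wild type, with ko1 and ko2 far apart. Irs2, a docking protein that links the receptors to PI3 kinase, read 2.28 in ko1 and 0.935 in ko2, against 12.4 in heterozygous and 14.2 in wild type, both homozygous signals being below background (limma adjusted p = 0.756 for homozygous against wild type). Grb10, an imprinted adaptor that restrains IGF1R signalling, read 8.21 in ko1 and 8.16 in ko2, against 17.0 in heterozygous and 35.0 in wild type, a homozygous minus wild type difference of -1.46 (limma adjusted p = 0.684). Lin28a, an RNA-binding protein of ES cells that blocks let-7 maturation, read 21.7 and 21.5, against 54.7 in heterozygous and 81.6 in wild type (-1.34, limma adjusted p = 0.521). Ptpn11, the SHP2 phosphatase that links receptors to RAS signalling, read 35.4 in ko1 and 24.5 in ko2, against 13.2 in heterozygous and 14.5 in wild type, a homozygous minus wild type difference of 1.53 (limma adjusted p = 0.523). Irs2, Grb10, Lin28a, Pik3cd and Inppl1 (all lower) and Ptpn11 (higher) were the 6 with an unadjusted p below 0.05 for homozygous against wild type. Against heterozygous the 7 were Ctsd, Akt1, Inpp5d and Rptor (higher) and Irs2, Lin28a and Myc (lower). Ctsd, a lysosomal protease, read 119 in ko1 and 54.1 in ko2, against 23.2 in heterozygous and 61.5 in wild type (limma adjusted p = 0.288 against heterozygous).

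Most markers of extraembryonic endoderm and some of ES cells passed the test for homozygous against wild type. No fibroblast marker did, and of the trophoblast markers only Krt8 and Krt18. Many of the endoderm and ES cell markers had been seen to move in these arrays before the lists were made. Their counts below are therefore a description and no independent test. In these bulk cultures, fewer cells of a type and less RNA per cell cannot be told apart. Of 22 listed markers of extraembryonic endoderm, a tissue in which Igf2 is known to be active, 20 were tested, and 14 rose in homozygous against wild type (0.377% of all tested probe sets rose) and 12 against heterozygous (0.352%). Their summed signal was 7697 in ko1 and 4222 in ko2, against 140 in heterozygous and 196 in wild type, and 19 were above background in each homozygous line, against 5 in heterozygous and 6 in wild type. Sparc, Col4a1, Col4a2 and Lama1 made up most of the endoderm sum, with Sparc alone at 3876 in ko1 and 2308 in ko2. The larger endoderm sum, which thus reflects a few bright genes, was in ko1. The larger Igf2 signal was in ko2, and a link between them was not tested. Of the 10 ES cell markers, 4 fell in homozygous against wild type (0.0851% of all tested probe sets fell) and 0 against heterozygous (0.0259%, with 7 of the 10 at an unadjusted p below 0.05 by limma), their summed signals being 782 for ko1 and 893 for ko2, against 1955 in heterozygous and 3285 in wild type. Klf4 on this list was above both other arrays in both homozygous lines and did not pass. Igfbp2 had the same order of arrays as this sum. Fibroblasts express several IGF binding proteins; of 15 fibroblast markers, 12 were tested and 0 passed by limma for homozygous against wild type or heterozygous (2 at an unadjusted p below 0.05 in each), with sums of 74.5 and 89.9 in the homozygous lines, against 44.6 in heterozygous and 96.2 in wild type. Of 12 trophoblast markers, 10 were tested and 2 rose in homozygous against wild type, Krt8 and Krt18 (0.377% of all tested probe sets rose), and 0 against heterozygous by limma (2 at an unadjusted p below 0.05), with sums of 493 and 359, against 133 in heterozygous and 120 in wild type. Krt8 and Krt18 made up most of the trophoblast sums. No listed marker with a probe set was at 0. The part of these cell types, and of the actin ratios, in the Igf2 and Igfbp2 values was not tested. Many of the endoderm and ES cell markers had been seen to move in these arrays before the lists were made.

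**Figure D4:**
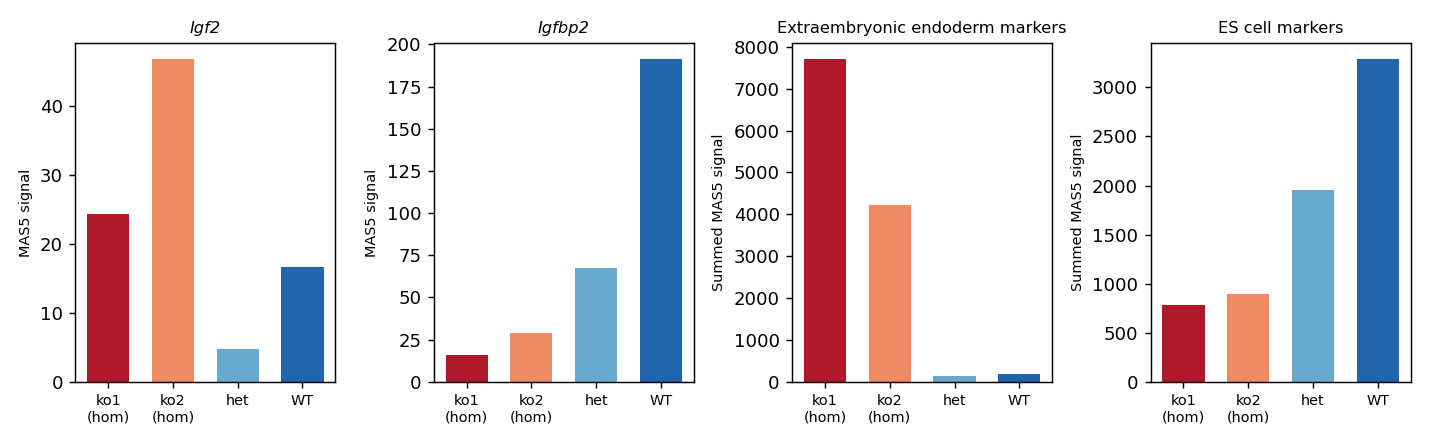
Deposited MAS5 signal of the brightest Igf2 and Igfbp2 probe sets and summed MAS5 signal of 22 extraembryonic endoderm and 10 ES cell markers (vertical axes, linear, from 0) on the arrays of ko1, ko2, heterozygous (het) and wild type (WT) cells; bars are single arrays. Igf2 is brightest in ko2 (46.8), the endoderm sum in ko1 (7697), and both Igfbp2 (191) and the ES cell marker sum (3285) in WT. Most of the ES cell marker sum is Dppa5a (2341 in WT), and the largest part of the endoderm sum is Sparc (3876 in ko1).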

How the data were processed

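Total RNA of 4 mouse ES cell cultures, 8 microgram each, was labelled with biotin and hybridised to 1 Affymetrix array per culture, per the labels' protocols. Each deposited value is the linear signal intensity of a probe set, which the authors computed with MAS5, as listed in the submitters' processing notes. Its version, scaling target and detection calls were not given in the sources used here. No depth applies to arrays, and their number limits the precision. Of 45101 probe sets, 34958 had 1 gene symbol in the platform annotation, 932 several and 9211 none; only the first kind was named.

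The test took in the 27022 probe sets, 64 controls left out, whose mean over the arrays exceeded 2.55 (the 40th percentile), each on its own, as log2(signal + 0.675), the pseudocount being the 20th percentile of all values, minus the array's median over these probe sets. A fold on this scale understates changes of dim genes. Centring was used because the arrays showed no common scaling target: their means trimmed by 2% were 4.89 in ko1, 4.33 in ko2, 4.43 in the heterozygous array and 7.12 in the wild type array. Each probe set was tested by limma 3.58.1 (R 4.3.3), fitting a mean for every genotype with an intensity trend and Benjamini-Hochberg adjustment over all tested probe sets, at 0.05. The spread between ko1 and ko2 gives the only residual degree of freedom (1). The total was 21.0 degrees of freedom, because limma draws most of each variance from the intensity trend over all tested probe sets. A p-value thus rests mainly on the spread between ko1 and ko2 over all probe sets, which may be technical. It rests little on the spread of the probe set itself. The lone heterozygous and wild type arrays are assumed to vary likewise. The fit was tested on simulated data. An "at least" fold sets the mean of the brighter side against the background of the dimmer side, where every array of the brighter side is above background and every array of the dimmer side is not. Such a fold takes no account of the error of the fit and is not the lower end of an interval. Promoter windows came from the RefSeq table of GRCm38.p6, matched by symbol. The members and all gene lists were chosen with earlier results of these data known. Named were all probe sets of the members, called pathway genes (there were none), and the 5 genes most like Igfbp2. Other genes were named for their role or for values already seen. Alternatives were other scalings, pseudocounts, filters, handling of several probe sets, no trend, 2 groups, and leaving out ko1 or ko2.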

Additional observations from a re-analysis of the deposited data

How the results depend on the processing

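The count of IGF system probe sets past the test stayed at 0 in all 3 comparisons under every alternative that gave one, except that 1 passed (Igf2, log2 difference 2.08, adjusted p = 0.0441) in the fit of homozygous against both other arrays together. Over the alternatives with a test, the adjusted p of Igf2 for homozygous against heterozygous ranged from 0.0643 (signals as deposited) to 0.741 (no intensity trend). Igfbp2 for homozygous minus wild type, whose sign the choice of genes fixed, ranged from -3.11 (signals as deposited) to -2.10 (without ko1); without ko2 it was -3.04. Counts of all probe sets past the test for homozygous against wild type (125) became 70 after trimmed mean scaling, 68 with a sixteenth (1/16) of the pseudocount, 21 with no filter, 50 with 1 probe set per gene, 7 with probe sets averaged, 0 with no intensity trend and 230 with 2 groups. For homozygous against heterozygous (102) they became 56, 66, 20, 48, 4 and 0 under the same settings, 2 groups left out. The setting with 2 groups compared homozygous with both other arrays together, not with wild type alone. Settings with 1 value per gene tested fewer features. Otherwise the cause was not tested.

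Signs that turned belong to small or dim differences, none past the test. For homozygous minus wild type these were Igfbp3 (-0.39), Igfbp4 (-0.063) and Igf2bp1 (-0.26) with signals as deposited. Further ones were Igfbp3 (-0.053) with 1/16 of the pseudocount and Igf2bp1 (-0.20) with probe sets averaged. Leaving out ko1 or ko2, Igf2r (-0.77 to 0.37), Igfbp3 (-1.18 to 1.49) and Igfbp5 (-0.63 to 0.20) turned. With 2 groups the comparison was with wild type and heterozygous together, not with wild type alone. There Igf2r (0.47) and Igfbp3 (-0.87) had the other sign. For homozygous minus heterozygous they were Igf2bp1 with no filter (0.031) and on leaving out ko1 or ko2 (-0.143 to 0.084), and Igf1r (-0.50), Igfbp5 (0.10) and Igf2bp3 (0.062) with probe sets averaged. For heterozygous minus wild type they were Igf2bp1 with signals as deposited (-0.25), Igf2bp3 after trimmed mean scaling (0.052) and quantile normalization (0.18), and Igfbp5 (-0.22) and Igf2bp1 (-0.071) with probe sets averaged. The count of probe sets with homozygous below both other arrays, 7, was 9 without ko1 and 11 without ko2 (37.8% and 36.5% of all tested probe sets), and that above both, 6, was 10 and 9 (31.5% and 34.9%); these settings were chosen after seeing the data. Without ko1 or ko2 no replicate is left, so these are values with no test. No paired analysis was possible because only the homozygous group has more than 1 array and the labels give no number shared with the other groups.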
